A study of Mus musculus with 6 samples.

Results

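The genes described here are Larp7, the protein-coding partners with which it acts in the 7SK and P-TEFb complexes (Mepce, Hexim1, Cdk9, Ccnt1 and Ccnt2), and the miRNA genes Mir302a, Mir302b, Mir302c and Mir302d. They were taken by gene symbol from the platform annotation, are 10 of the 22180 genes with an array row that names a single gene, and have 1 such row each. Expression was measured on arrays in mouse embryonic stem cells (ESCs) of the Dgcr8-/- genotype. DGCR8 is the partner of the Drosha nuclease, and cells that lack it cannot turn primary transcripts into canonical miRNAs. All 6 samples share this deletion: 3 carried a control hairpin, and 3 carried sh-miR-302, a hairpin meant to supply miR-302 mimics. Samples within a group were independent biological ones according to the design text. The sources used here do not give the promoter of the hairpins, their integration or the number of ESC clones. Values are log2 expression levels after RMA, in which 1 unit is a 2-fold difference and which carry no detection call, so low levels may be no more than background signal. The comparison asks what returning miR-302 to cells without other canonical miRNAs did to the transcripts of the locus that encodes it and of the complex its host gene serves.

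The array of miR-302 replicate 1 stood apart: its correlation with the other miR-302 arrays over all genes was 0.990, against 0.996 between those and 0.996 to 0.997 among the control arrays. Results of the members are therefore given with and without it, and the marker values below are given with it. The deleted gene, Dgcr8, has a row shared with another gene and was not analysed here, so these values do not check the genotype. Over all genes 7.18% were called higher and 9.25% lower (limma, adjusted p under 0.05). Of 8 ESC markers none was called, and their mean level was 10.56 to 10.60 in control and 10.40 to 10.67 in miR-302 arrays. That mean joins differences in both directions, from −0.33 to 0.26. For 2 of the 8 the miR-302 arrays lay above all controls and for 2 below all, against 35.8% of all genes in either direction. Within the ESC markers Dppa5a was low, at a mean of 5.54. Of 6 trophectoderm markers, 5 were higher with miR-302 and none lower, and their mean level was 6.22 to 6.33 in control and 7.63 to 8.45 in miR-302 arrays. Of 7 feeder fibroblast markers 1 was higher and 1 lower (means of 5.72 to 5.79 and 5.86 to 6.03), and of 5 primitive endoderm markers also 1 and 1 (5.44 to 5.59 and 5.65 to 5.77). Their part in the results below was not tested.

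LARP7 is a La-related protein that binds the 3′ end of the 7SK small nuclear RNA and keeps it stable. MEPCE caps the 5′ end of the same RNA, and HEXIM1, bound to it, holds the kinase P-TEFb (CDK9 with cyclin T1 or T2) inactive. P-TEFb released from 7SK phosphorylates RNA polymerase II and its pausing factors and so lets paused genes be transcribed. The miR-302 miRNAs are abundant in pluripotent cells, share a seed with members of the miR-290 family, the main miRNA family of mouse ESCs, and are encoded within Larp7 together with Mir367.

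The mature sequences are shown because the seed, bases 2 to 8 in capitals, defines which transcripts a miRNA of this cluster can pair with. All come from RefSeq (GRCm38.p6), 5′ to 3′. The first set holds 3′ arms of 4 of the 5 hairpins of the cluster, without miR-302a-3p, which was not analysed here. The second holds the 3′ arms from the miR-290 cluster on chromosome 7 with the seed of miR-302b-3p.
miR-302b-3p: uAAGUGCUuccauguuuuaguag
miR-302d-3p: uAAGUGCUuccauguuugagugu
miR-302c-3p: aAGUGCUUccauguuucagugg
miR-367-3p: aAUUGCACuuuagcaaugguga
miR-291a-3p: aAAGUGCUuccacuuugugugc
miR-294-3p: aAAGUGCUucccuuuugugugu
miR-295-3p: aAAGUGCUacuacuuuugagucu

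Among the 1679 mature mouse miRNA names in the table, 5 have bases 2 to 8 equal to those of miR-302b-3p, and they are the 5 with that seed shown above. These names do not include miR-302a-3p, so its seed was not compared. The entry for miR-302c-3p starts 1 base later than those of miR-302b-3p and miR-302d-3p, which moves its bases 2 to 8 by 1 position within the same run. The 3′ arms of miR-302b and miR-302d share a run of 17 bases, and each of them shares 16 bases with miR-302c-3p. The seed of miR-367-3p is another, found in 6 miRNA names including miR-25-3p and miR-92a-3p. Of the 5′ arms, those of miR-302b, miR-302c and miR-302d have the seed cuuuaac, and that of miR-302a reads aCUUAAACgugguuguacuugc.

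The array rows stand for the miRNA genes, not for mature miRNAs. The hairpins of miR-302b, miR-302c, miR-302d and miR-367 are shown with the 3′ arm in capitals, because Mir302b had the largest difference of the members and Mir367 is the cluster gene that passed the test.
Mir302b: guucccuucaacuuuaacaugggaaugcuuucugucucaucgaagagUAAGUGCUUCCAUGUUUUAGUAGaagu
Mir302c: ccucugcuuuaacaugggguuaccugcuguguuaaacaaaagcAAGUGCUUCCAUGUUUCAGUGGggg
Mir302d: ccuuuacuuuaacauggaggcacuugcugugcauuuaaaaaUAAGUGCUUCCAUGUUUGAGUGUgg
Mir367: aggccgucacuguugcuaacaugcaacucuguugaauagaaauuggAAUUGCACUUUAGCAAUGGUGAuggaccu

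In GRCm38.p6 the 5 hairpins lie on the plus strand in the order Mir302b (chr3:127545228-127545301), Mir302c (chr3:127545363-127545430), Mir302a (chr3:127545496-127545564), Mir302d (chr3:127545624-127545689) and Mir367 (chr3:127545733-127545807). They span 580 bases, with 43 to 65 bases between neighbours, and each is 66 to 75 bases long. The Larp7 promoter in the RefSeq promoter table is on the minus strand, so the miRNA genes lie within the span of Larp7 but are transcribed against it. Besides them, that span holds 1 other annotated gene, the long non-coding RNA gene Gm51018, which has no single-gene row. Whether labelled RNA of 1 strand could reach a row of the other was not tested, and neither was whether these rows detect RNA of the hairpin construct.

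None of the 10 genes passed the test (limma, adjusted p under 0.05), while 16.4% of all genes did, 7.18% higher and 9.25% lower. At an unadjusted p under 0.05, 3 of the 10 were past it, Mir302a and Mir302b higher and Hexim1 lower, against 30.2% of all genes. The 3 miR-302 arrays did not overlap the control arrays for 2 of the 10, Cdk9 and Mir302b, both higher. Over all genes 35.8% did not overlap, and 16.8% of all genes did so with the miR-302 group higher. The median log2 difference was 0.045 for the 6 protein-coding members and 0.46 for the 4 Mir302 genes, against 0.01 over all genes.

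**Figure D1:**
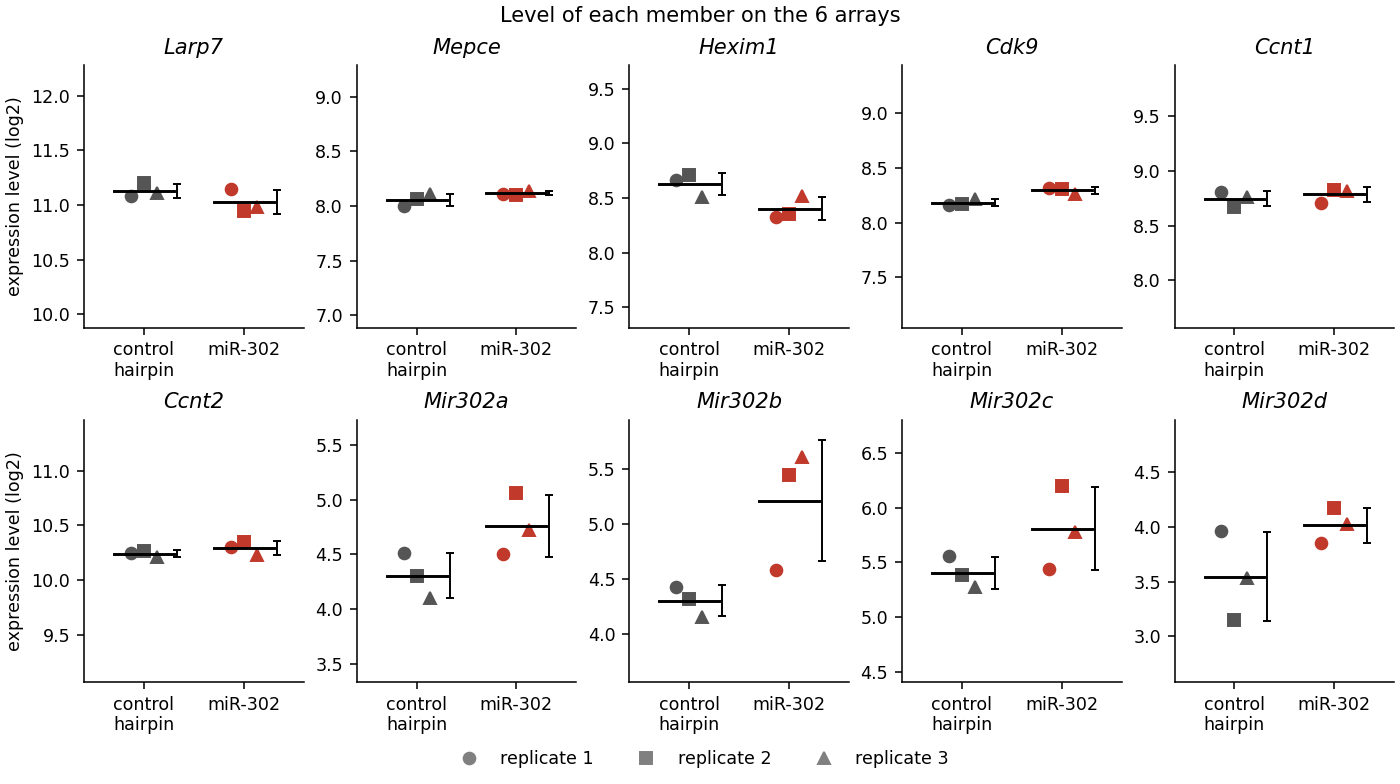
Level of each of the 10 genes (log2, vertical axis, same span in every panel) on the 3 control hairpin arrays (grey) and the 3 miR-302 arrays (red), with the replicate number given by the symbol. Black lines are group means and error bars are SD (n = 3). The protein-coding genes hardly move, while all 4 Mir302 genes have their miR-302 mean above the control mean and replicate 1 as the lowest miR-302 array.

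Larp7 itself was nearly level. It measured 11.08, 11.20 and 11.11 on the control arrays and 11.15, 10.95 and 10.98 on the miR-302 arrays. The groups overlap, since miR-302 replicate 1 lies above control replicates 1 and 3, while replicates 2 and 3 lie below all controls. The difference of means was −0.10 ± 0.08 (SE), 1.07-fold lower, with a 95% interval of −0.30 to 0.09 (limma, adjusted p = 0.463). Without miR-302 replicate 1 it was −0.17 (adjusted p = 0.147). Over 6 fits, each without 1 array, it lay between −0.17 and −0.07.

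Of the proteins that share the 7SK RNA with LARP7, the capping enzyme gene Mepce was level and Hexim1 had a slightly lower mean. Mepce measured 8.0, 8.06 and 8.11 in control and 8.11, 8.10 and 8.14 with miR-302, a difference of 0.06 ± 0.07 (SE; adjusted p = 0.612). Its groups overlap, with miR-302 replicate 2 just below the highest control and replicate 3 above all controls. Hexim1, which encodes the inhibitor of the kinase, measured 8.66, 8.71 and 8.51 in control and 8.33, 8.35 and 8.52 with miR-302. Replicates 1 and 2 with miR-302 lie below all controls, and replicate 3 lies just above the lowest control. The difference was −0.23 ± 0.09 (SE), 1.17-fold lower, with a 95% interval of −0.44 to −0.01 and an adjusted p of 0.143. It was −0.19 without miR-302 replicate 1 (adjusted p = 0.210) and −0.29 to −0.19 over the 6 leave-one-out fits, none of which called it.

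The 7SK RNA gene, Rn7sk, has 2 rows. The one with the higher mean read 13.67, 13.64 and 13.65 in control and 13.70, 13.63 and 13.60 with miR-302, a difference of −0.01 ± 0.07 (SE; adjusted p = 0.943). In the other row the values were 13.33, 13.38 and 13.34 against 13.54, 13.44 and 13.35, a difference of 0.09 (adjusted p = 0.479 with every row tested on its own). In both rows the groups overlap.

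The kinase and its cyclins stayed within narrow limits. Cdk9, the catalytic subunit, measured 8.16, 8.17 and 8.22 in control and 8.32, 8.31 and 8.26 with miR-302. All 3 miR-302 arrays were above all controls, but the difference was small, 0.11 ± 0.06 (SE), 1.08-fold (95% interval −0.04 to 0.27, adjusted p = 0.297). Ccnt1, which encodes cyclin T1, measured 8.81, 8.67 and 8.76 against 8.71, 8.83 and 8.82, with overlapping groups and a difference of 0.04 ± 0.08 (SE; adjusted p = 0.778). Ccnt2, which encodes cyclin T2, measured 10.25, 10.27 and 10.21 against 10.30, 10.35 and 10.23, also overlapping, with a difference of 0.05 ± 0.07 (SE; adjusted p = 0.687). The 95% intervals were −0.14 to 0.22 for Ccnt1 and −0.11 to 0.21 for Ccnt2. None of the 3 was called in any of the leave-one-out fits.

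When the test was limited to the 11090 genes whose mean reached the median of all genes, 38.7% of genes were called, and the 6 protein-coding members were all among those tested. None of the 6 passed, with adjusted p from 0.0667 for Hexim1 to 0.649 for Ccnt1. With all genes tested, the 95% interval of Hexim1 excluded 0 (−0.44 to −0.01), and those of Larp7, Mepce, Cdk9, Ccnt1 and Ccnt2 included it. An interval that includes 0 does not show that a level was equal. For all 6 the intervals end between −0.44 and 0.27 on the log2 scale.

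The 4 Mir302 genes all had a higher mean with miR-302, and none was called with all arrays. Their differences were 0.46 ± 0.17 (SE) for Mir302a, 0.91 ± 0.26 for Mir302b, 0.40 ± 0.19 for Mir302c and 0.47 ± 0.20 for Mir302d. Each encodes 1 hairpin of the cluster, and the rows are neighbours on 1 transcript, so they are not independent of each other. All 4 lie below the median level of all genes, as do most of the miRNA genes, of which 151 of 483 are at or above it.

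Mir302b had the largest difference. It measured 4.43, 4.32 and 4.15 on the control arrays and 4.58, 5.45 and 5.61 on the miR-302 arrays. The groups do not overlap, but miR-302 replicate 1 is much closer to the controls than to the other miR-302 arrays. The difference corresponds to 1.88-fold (95% interval 0.29 to 1.53 on the log2 scale, adjusted p = 0.0585). Without miR-302 replicate 1 the difference was 1.23 and was called (adjusted p = 0.00107). In that fit 24.3% of all genes were called, 11.2% higher, and 3 of the 10 members were, all of them Mir302 genes. An intensity trend with a robust prior also called it (adjusted p = 0.0361), the 1 member called there, with 20.7% of all genes called and 9.1% higher.

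Mir302a measured 4.51, 4.30 and 4.10 in control and 4.5, 5.06 and 4.72 with miR-302. Replicates 2 and 3 with miR-302 are above all controls, and replicate 1 falls at the level of the highest control. The difference had an adjusted p of 0.116, and without miR-302 replicate 1 it was 0.59 and was called (adjusted p = 0.0450). Mir302c measured 5.56, 5.38 and 5.27 in control and 5.44, 6.20 and 5.78 with miR-302, again with replicate 1 among the controls. Its adjusted p was 0.213, and without that array the difference was 0.59 with an adjusted p of 0.0406.

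Mir302d measured 3.96, 3.15 and 3.53 in control and 3.85, 4.17 and 4.03 with miR-302. The control arrays spread more than the miR-302 arrays (SD 0.41 and 0.16, n = 3 each), and the highest control lies above miR-302 replicate 1. Its difference had an adjusted p of 0.175, and it was not called in any of the leave-one-out fits, with adjusted p of 0.0574 to 0.370. In these the difference lay between 0.27, without control replicate 2, and 0.68, without control replicate 1.

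In all 4 Mir302 genes, miR-302 replicate 1 was the lowest of the 3 miR-302 arrays, a position it had in 37.2% of all genes. Its distance from the control mean was 0.20 for Mir302a, 0.28 for Mir302b, 0.04 for Mir302c and 0.30 for Mir302d, while the mean of replicates 2 and 3 was 0.59, 1.23, 0.59 and 0.55 above the control mean. For Larp7 the same array was the highest of its group, 0.02 above the control mean, and replicates 2 and 3 averaged 0.17 below it. Of the 6 trophectoderm markers, 5 were also lowest in replicate 1 among the miR-302 arrays, and Gata3 was highest there (7.78 against 7.45 and 7.68). The gap was widest in the keratin genes, with 10.43 against 12.07 and 12.11 for Krt8 and 9.86 against 11.82 and 11.68 for Krt18. Of the 8 ESC markers, 7 were highest in replicate 1 and none lowest. Of 7 feeder fibroblast markers 3 were lowest there and 1 highest, and of 5 primitive endoderm markers 3 and 2. Whether these positions are linked to the Mir302 values was not tested.

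**Figure D2:**
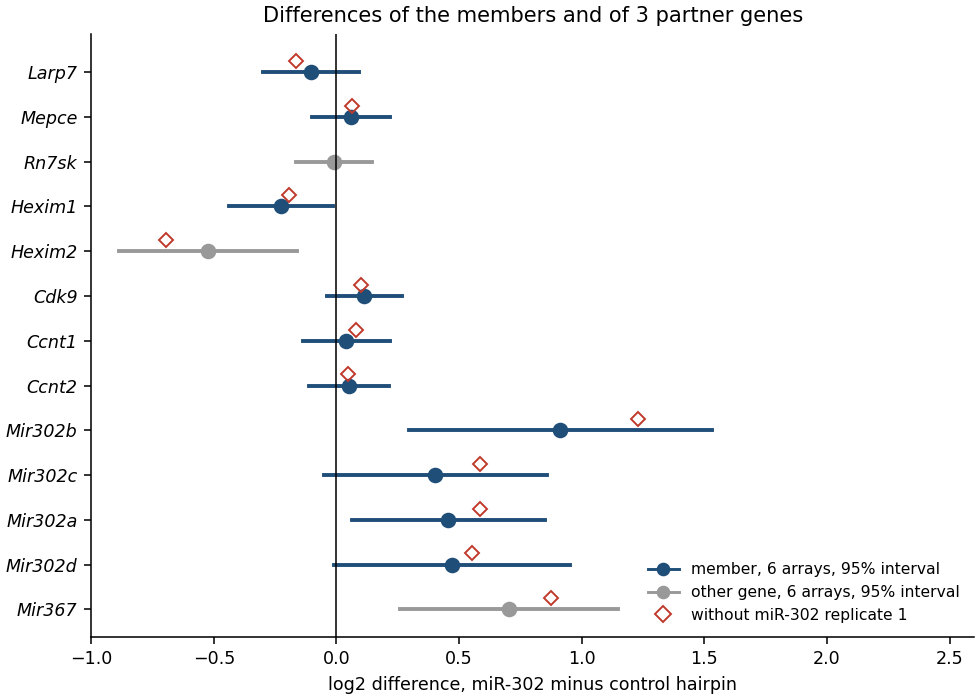
Log2 difference, miR-302 minus control hairpin, of the 10 members (blue) and of Rn7sk, Hexim2 and Mir367 (grey), with 95% intervals from limma over 6 arrays. Red diamonds give the difference without miR-302 replicate 1 (not drawn for Rn7sk). The intervals of the protein-coding members stay near 0, and the diamonds move away from 0 in all rows of the miR-302 cluster, most for Mir302b (0.91 and 1.23).

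Mir367, the fifth hairpin of the cluster, was the cluster gene that passed the test with all arrays. It measured 4.33, 4.46 and 4.30 in control and 4.72, 4.99 and 5.49 with miR-302, with no overlap and replicate 1 again lowest. The difference was 0.70 ± 0.19 (SE), 1.63-fold (95% interval 0.26 to 1.15, adjusted p = 0.0469). The call lies at the threshold: it held in 1 of 6 leave-one-out fits, that without miR-302 replicate 1 (0.88, adjusted p = 0.0120). It was lost after quantile normalization (adjusted p = 0.0520) and with the replicate number as a block (0.0766). It was kept with the trend and robust prior (0.0297) and with arrays centred on their median (0.0477). The level of Mir367 lies below the median of all genes, so the test limited to higher genes gives no value for it. The label of the construct names miR-302 and not miR-367.

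Among all 483 miRNA genes with a single-gene row, 33 were higher, which is 6.83%, 32 were lower and 418 were not called, with a median difference of 0.00. The shares over all genes were 7.18% higher and 9.25% lower. Mir290a, a gene of the miR-290 cluster, has a single-gene row, and the other listed genes of that cluster do not. Its mature miRNAs are not among the 5 with the seed of miR-302b-3p. The row measured 12.43, 12.54 and 12.43 in control and 12.51, 12.53 and 12.48 with miR-302, a difference of 0.04 ± 0.07 (SE; adjusted p = 0.755). Its groups overlap and all 6 arrays lie within a narrow range.

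The genes around Larp7 on chromosome 3 showed no common shift. Of the 5 nearest protein-coding genes with a row on each side, 1 of 10 was called, Ap1ar, which was higher, against 16.4% of all genes. Their median difference was 0.01. On the side of the 3′ end of Larp7, Ank2, which encodes an ankyrin, measured 7.26, 7.35 and 7.30 in control and 7.02, 7.19 and 7.35 with miR-302, overlapping (adjusted p = 0.485). Zgrf1, which encodes a helicase-related zinc finger protein and starts next to the Larp7 promoter on the opposite strand, measured 7.86, 7.95 and 7.84 against 7.77, 7.84 and 7.84, also overlapping (−0.07 ± 0.07 SE, adjusted p = 0.583).

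Farther out, Camk2d, a calcium-dependent kinase gene, measured 5.84, 5.73 and 5.94 in control and 6.13, 6.96 and 7.07 with miR-302. Its groups do not overlap and replicate 1 is the lowest miR-302 array, and the difference of 0.88 ± 0.24 (SE) just missed the threshold (adjusted p = 0.0502). Without miR-302 replicate 1 it was 1.18 and was called (adjusted p = 0.000667). Ap1ar, which encodes an adaptor of vesicle transport, measured 11.07, 11.19 and 11.22 against 11.37, 11.52 and 11.49, a rise of 0.30 ± 0.08 (SE; adjusted p = 0.0454) that held in 1 of 6 leave-one-out fits, that without miR-302 replicate 1. The lipid enzyme gene Ugt8a differed by 0.85 ± 0.36 (SE; adjusted p = 0.167), and without miR-302 replicate 1 by 1.30 (adjusted p = 0.000676). In that fit 3 of the 10 neighbours were called, against 24.3% of all genes. Ndst4, Arsj, Neurog2, Tifa and Fam241a differed by −0.18 to 0.09 and were not called.

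**Figure D3:**
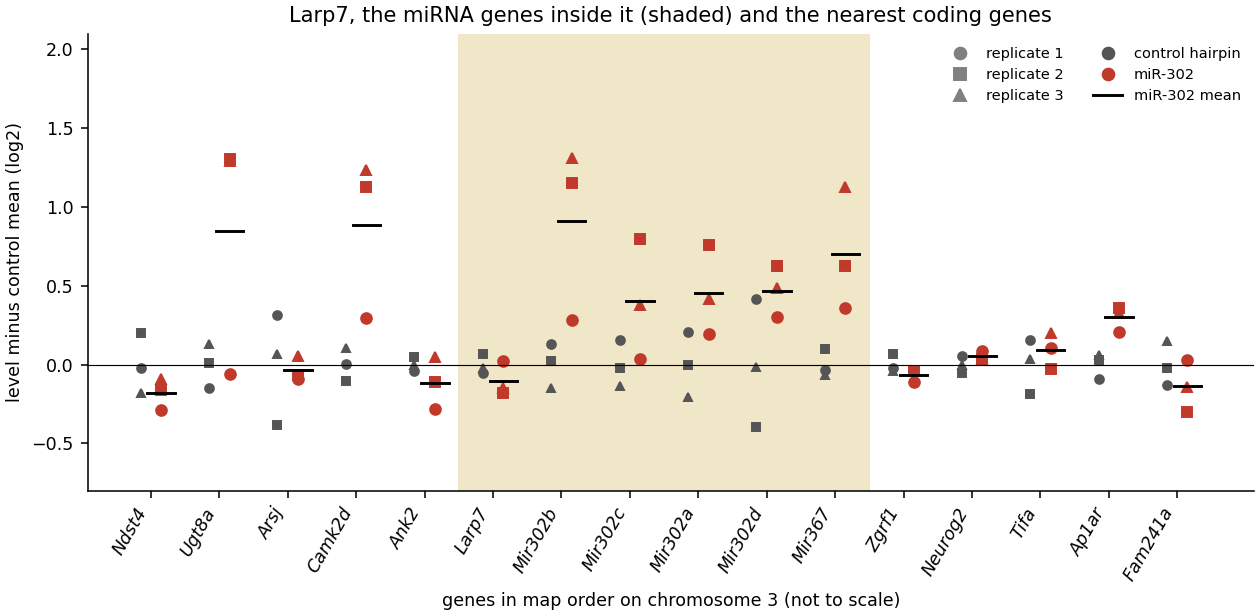
Level minus the control mean (log2) for Larp7, the 5 miRNA genes within it (shaded with it) and the 5 nearest coding genes on each side, in map order but not to scale. Grey symbols are control and red symbols miR-302 arrays, and black lines are the miR-302 means. The shaded miRNA genes sit above 0 while Larp7 and its next neighbours Ank2 and Zgrf1 sit at or slightly below it.

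Beyond the 10 genes, 9 lists of the transcription elongation pathway and of LARP7's relatives held 69 genes, of which 56 had a single-gene row. Of these 56, 4 were higher, 2 lower and 50 not called, with a median difference of 0.05. Without miR-302 replicate 1, 13 of the 56 were called, against 24.3% of all genes. Without any 1 of the other arrays 1 or 2 were, against 1728 to 2077 of all 22180 genes. Counts below are for all 6 arrays.

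Of 10 further 7SK and P-TEFb partners none was called in the main fit. At an unadjusted p under 0.05, 3 were past it, all lower, against 30.2% of all genes in either direction. Hexim2, which encodes the second inhibitor of P-TEFb, measured 6.77, 6.95 and 6.82 in control and 6.67, 6.13 and 6.17 with miR-302. All miR-302 arrays lie below all controls, and replicate 1 is the closest to them. The difference was −0.52 ± 0.15 (SE), 1.44-fold lower (adjusted p = 0.0622), and it was called without miR-302 replicate 1 (−0.70, adjusted p = 0.00250), with the trend and robust prior (adjusted p = 0.0403) and with low genes left out (adjusted p = 0.0336). Hnrnpr, an RNA-binding protein gene, differed by −0.22 ± 0.07 (SE; adjusted p = 0.0654). It was called with low genes left out (adjusted p = 0.0169) and with the trend and robust prior (0.028), as was Srsf2 (−0.16, adjusted p = 0.0404 and 0.00973). In these 2 fits 38.7% and 20.7% of all genes were called. A second Srsf1 row differed by −0.27 and was called (adjusted p = 0.0434 with every row tested on its own). The Srsf1 row used here was not called there (−0.12, adjusted p = 0.280). Hnrnpa1 has no single-gene row and was not analysed here.

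In the super elongation complex, which brings P-TEFb to paused polymerase, 1 of 9 genes was called, against 16.4% of all genes. Aff4, its scaffold, measured 11.38, 11.37 and 11.41 in control and 11.70, 11.69 and 11.70 with miR-302. The arrays of each group agree closely and the groups are well apart, with a rise of 0.31 ± 0.06 (SE), 1.24-fold (adjusted p = 0.0186). Even so, its call was kept in 1 of 6 leave-one-out fits, that without miR-302 replicate 1. In that fit, with low genes left out and with the trend and robust prior, 3 of the 9 genes were called each time. Of all genes 24.3%, 38.7% and 20.7% were called in those fits.

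The pausing factors had no call in 5 genes. Nelfb and Nelfcd, subunits of the complex that holds polymerase near the start site, differed by −0.15 ± 0.07 (SE; adjusted p = 0.190) and −0.13 ± 0.06 (SE; adjusted p = 0.239). Their miR-302 arrays lie below all control arrays. The PAF1 complex with Supt6, which accompanies elongating polymerase, had no call in 7 genes. At an unadjusted p under 0.05, 4 were higher and 1 lower, against 30.2% of all genes in either direction. With low genes left out, and also with the trend and robust prior, 3 of the 7 were called, Ctr9 and Wdr61 in both fits. Of all genes 38.7% and 20.7% were called in those fits. Ctr9 differed by 0.39 ± 0.12 (SE; adjusted p = 0.0732) and Wdr61 by 0.18 ± 0.06 (SE; adjusted p = 0.112).

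Among 8 other kinases and cyclins that act on the polymerase tail, 1 was called, against 16.4% of all genes. This was Cdk8, the kinase of the Mediator complex. It measured 10.36, 10.35 and 10.40 in control and 10.62, 10.89 and 10.80 with miR-302, a rise of 0.40 ± 0.09 (SE), 1.32-fold (adjusted p = 0.0246). Replicate 1 was the lowest miR-302 array, and the call was kept in 1 of 6 leave-one-out fits, that without it.

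La and the other La-related protein genes, which share the La module with LARP7, had 1 call in 6, against 16.4% of all genes. Larp1b measured 8.17, 8.21 and 8.20 in control and 7.87, 7.38 and 7.28 with miR-302. The groups are clearly apart and replicate 1 is the closest to the controls. It fell by 0.68 on the log2 scale, 1.61-fold (SE 0.15, adjusted p = 0.0269), or by 0.86 without miR-302 replicate 1, the 1 of the 6 such fits in which it was called. A second Larp1b row differed by −0.14 (adjusted p = 0.573 with every row tested on its own), and the mean of both rows by −0.41 (adjusted p = 0.0127). The test of whether Larp1b and Larp7 differ in their response was not made. Of 4 genes that act with LARP7 in modifying the U6 small nuclear RNA none was called, and Nop56 and Mettl16 differed by −0.15 ± 0.06 (SE; adjusted p = 0.162) and 0.10 ± 0.06 (SE; adjusted p = 0.354). Nop56, a core protein of small nucleolar ribonucleoproteins, has 3 rows that disagree in size. With every row tested on its own they differed by −0.15, −0.37 and −0.81 (adjusted p = 0.172, 0.0613 and 0.0289), so 1 of the 3 was called, and the mean of the rows was also called (−0.45, adjusted p = 0.0107). The row used here was called with low genes left out (adjusted p = 0.0456) and with the trend and robust prior (adjusted p = 0.0150).

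Of 5 rapidly induced genes whose transcription depends on release by P-TEFb, Myc was higher, Egr1 lower and 3 were not called. Over all genes 7.18% were higher and 9.25% lower. Myc, a growth-promoting transcription factor gene, measured 7.36, 7.46 and 7.63 in control and 8.52, 9.0 and 9.18 with miR-302. The groups are far apart on this scale, a rise of 1.42 ± 0.17 (SE), 2.67-fold (adjusted p = 0.00373), called in all 6 leave-one-out fits. Egr1, an early growth response factor gene, measured 6.83, 6.79 and 6.83 against 6.21, 6.40 and 6.58, a fall of 0.42 ± 0.10 (SE) on the log2 scale (adjusted p = 0.0360) that was called in 2 of those 6 fits. Myc and Egr1 thus moved in opposite directions. Of the 5 genes of this list, 4 had a positive difference and 1, Egr1, a negative one.

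**Figure D4:**
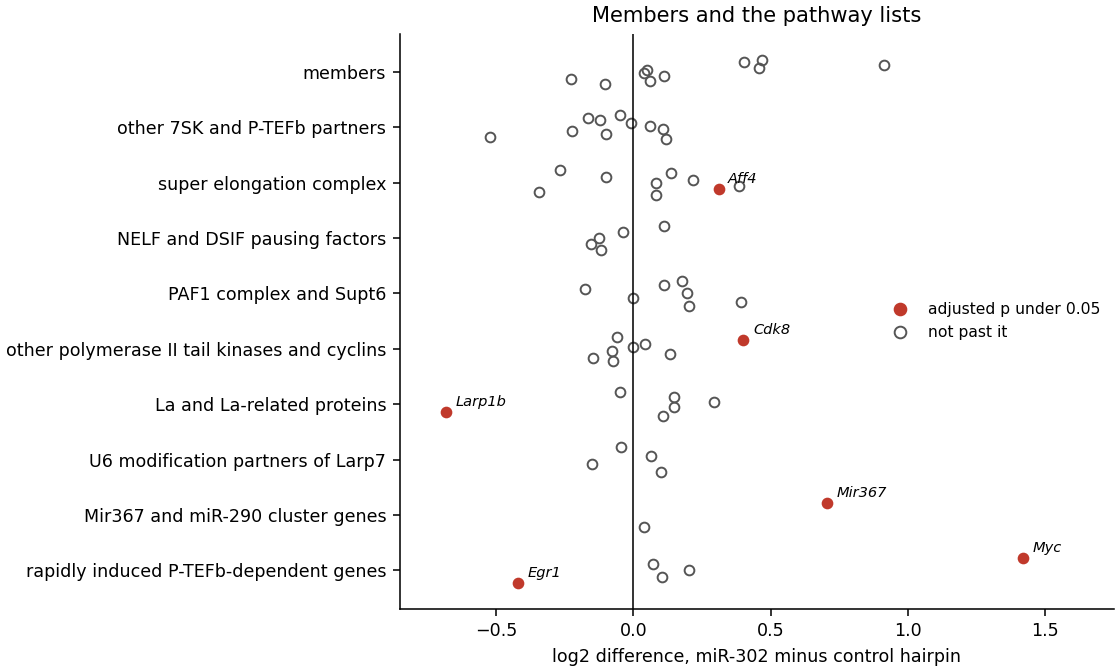
Log2 difference, miR-302 minus control hairpin, of the 10 members and of each measured gene in the 9 pathway lists, 1 point per gene. Filled red points passed limma's test at an adjusted p under 0.05 and open points did not. The named genes are the 6 that passed, and no member is among them.

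The genes whose levels over the 6 arrays were most like those of Larp7 (Pearson r, among 10564 genes that reach the median level, provisional models left out) were Ndufaf1 (r = 0.997), Zfp212 (0.994), Glt8d1 (0.989), Uso1 (0.989) and Crabp1 (0.988). This is a description over 6 arrays, in which a high r is common: 271 genes had an r over 0.9. Ndufaf1 measured 9.15, 9.31 and 9.21 in control and 9.23, 8.99 and 9.03 with miR-302, so that, as for Larp7, miR-302 replicate 1 lies within the control range and replicates 2 and 3 below it. None of these 5 genes was called (adjusted p of 0.212 to 0.657).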

How the data were processed

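Total RNA of 6 samples was biotin-labelled and read on single-colour arrays, per the labels. The deposited table holds 33649 rows and 6 sample columns, and 0 columns had no sample. RMA, run by the authors, is named by the submitters' processing notes. The sources used here do not give its software, version or genome build. The deposited values are taken to be log2 expression, since their base is not stated and RMA gives base 2. Their medians were 5.60 to 5.62 on all arrays. RMA equalizes the arrays, which hides any shift common to all genes, and the number of arrays limits the precision.

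Rows naming a single gene (23521, with 1814 naming several and 8314 none) were kept, and the row with the highest mean stood for a gene with several. Each of 22180 genes was fitted in R 4.3.3 by limma 3.58.1 (lmFit, eBayes, two-sided, Benjamini-Hochberg over all genes, threshold 0.05). SE is limma's moderated standard error. Groups came from the sample titles. No coordinates or sequences were used in the tests. miRNA sequences were copied from RefSeq tables of GRCm38.p6, which is not known to be the build of the deposited table. The RefSeq gene table gave neighbours and older symbols (Nhp2l1 as Snu13).

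The members and the lists were chosen with earlier results of these data known. Genes named are the members, all called genes of a list up to 5 or otherwise the 2 with the smallest p, the 5 coding neighbours of Larp7 on each side and the 5 genes most correlated with it. Mir290a, Krt8, Krt18, Gata3, Dppa5a, Srsf1 and Srsf2 were named after their values were seen. The fit was tested on simulated data, where it recovered 40% of 1.5-fold, 81.25% of 2-fold and 95.45% of 4-fold changes. In the simulation 153 genes were called, against 3643 in the real data, so these shares may not carry over. As alternatives, the fit was repeated with a replicate block, without each array in turn, with a level filter, an intensity trend with robust prior, 2 other scalings, 2 other row choices and a 1.5-fold threshold. Python 3.11.15 with matplotlib 3.10.9 drew the figures.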

Additional observations from a re-analysis of the deposited data

How the results depend on the processing

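No difference of a member changed its sign in any alternative. Without miR-302 replicate 1, 3 members were called, Mir302a (0.59), Mir302b (1.23) and Mir302c (0.59), and with an intensity trend and robust prior 1 was, Mir302b (0.91). In the other alternatives 0 were called, so the leave-one-out fits gave 0 to 3. In these fits Mir302a ranged from 0.31 to 0.59, Mir302b from 0.72 to 1.23, Mir302c from 0.21 to 0.59 and Mir302d from 0.27 to 0.68. Over all genes 3643 were called, 2293 with the replicate number as a block, 215 against a fold change of 1.5, and 1728 to 5395 with 1 array left out. Of the pathway lists' genes 6 were called, 1 with the replicate block, 16 with the trend and robust prior, 16 with low genes left out, 0 against a 1.5-fold change, and 1 to 13 with 1 array left out. The shares called over all genes were 16.4% in the main fit and 20.7% with the trend and robust prior. They were 38.7% with low genes left out and 24.3% without miR-302 replicate 1. The cause of these shifts was not tested. Deviations of arrays with the same replicate number correlated at 0.01 to 0.02, so the numbers are not taken to pair samples. The level filter removed all 4 Mir302 genes and Mir367 and gives no value for them. Low rows cannot be told from background. This holds for Mir302d and also for Mir302a, Mir302b and Mir367, whose calls are given above. Their control means were 3.55, 4.30, 4.30 and 4.36 in that order, against a median level of 4.93 over the miRNA genes.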
